A study of Mus musculus with 24 samples.

Results

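In hippocampal neurons, 260 transcripts differed at least 2-fold between 2 inbred mouse strains, in the same direction, in all 11 excitatory and inhibitory labels. They were selected on the deposited neuronal snRNA-seq counts themselves. The Cajal-Retzius label, which is also neuronal, was not used for the choice. For each of the 11 neuronal labels (8 excitatory, prefix Exc-, and 3 inhibitory, prefix Inh-), the counts of the 2 libraries of a strain were summed and scaled to counts per 1000000 (CPM) of that label, and 0.5 CPM was added to both strains before the D2:B6 ratio was taken. A transcript had to reach 5 counts in each strain and 50 counts in all over these labels, which 19604 of the 33902 listed symbols did, and its ratio had to be at least 2, or at most 0.5, in all 11 labels. Of the 19604, 96 (0.49%) were higher in D2 and 164 (0.837%) were lower. These neuronal values chose the transcripts, so they are given as a description and carry no test.

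Single-nucleus RNA sequencing (snRNA-seq) and single-nucleus ATAC sequencing (snATAC-seq, which counts cuts in open chromatin) were run on the ventral hippocampus of adult male C57BL/6J (B6) and DBA/2J (D2) mice aged 10 to 16 weeks. No treatment was given, and strain was the one difference between the animals of the groups. The mapping reference differed with the strain as well, mm10 for B6 and mm10 carrying the D2 SNPs for D2. Each assay had 2 libraries per strain, and each library pooled tissue from about 2 animals, so the spread between libraries is the spread between pools. The tables number the libraries 2 and 3 in each strain, and values are given below in that order. Over the neuronal labels the snRNA-seq libraries held from 35317284 to 47399214 counts and the snATAC-seq libraries from 89121907 to 120471933. The labels are the authors' cell types. Summed over Rbfox3, Snap25 and Syt1, neuronal markers reached 3210 to 5800 CPM in the 11 neuronal labels and at most 2220 CPM elsewhere, in the Cajal-Retzius (CR) label, which is also neuronal. Gad1, Gad2 and Slc32a1, which mark inhibitory neurons, summed to 492 to 1200 CPM in the inhibitory labels and to at most 57.3 CPM in the others. The excitatory markers Slc17a7, Slc17a6 and Neurod6 separated less, with 219 to 520 CPM in the excitatory labels and up to 232 CPM in the CR label. Prox1, C1ql2 and Dsp, markers of dentate granule neurons, summed to 286 to 368 CPM in Exc-DG but reached 484 CPM in the CR label.

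Inbred strains are fixed for different alleles, so a difference that lies in or next to a gene is present in every nucleus of the animal, whatever its type. Nuclear RNA is rich in unspliced transcripts, and with introns retained a read is counted over the whole gene model. A read that lies inside the models of overlapping genes on the same strand cannot be given to either by position, and Cell Ranger counts only reads that it can assign to a single gene. Each transcript was therefore marked where its GENCODE vM21 entry overlapped another entry on its own strand.

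The mean of the strains' neuronal levels ran from 0.888 to 364 CPM over the 96 members higher in D2 and from 1.12 to 649 CPM over the 164 lower. For the 96 higher in D2, the ratio over all neurons ranged from 2.29 to 189 with a median of 4.66. For the 164 lower in D2, it ranged from 0.00294 to 0.42 with a median of 0.166. Both D2 libraries lay on one side of both B6 libraries for all 260, a separation that the ratio limit goes a long way to fix. The same held for 13734 of the 19604 transcripts past the count limits (70.1%). The limit itself cut through a continuous range of ratios. The members nearest to it on the higher side were Gm4924, Babam1 and Fam8a1, with lowest label ratios of 2.016, 2.023 and 2.026, and Gm1647, AV039307 and Zkscan1 fell just outside at 1.991, 1.981 and 1.969. On the lower side Olfr323, Fam227b and Tmsb15b2 were just inside at 0.4967, 0.4889 and 0.4843, and 6430548M08Rik and Gm31508 were just outside at 0.5003 and 0.5049. A further 44 transcripts on the higher side and 50 on the lower side passed the limit in 10 of the 11 labels.

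**Figure D1:**
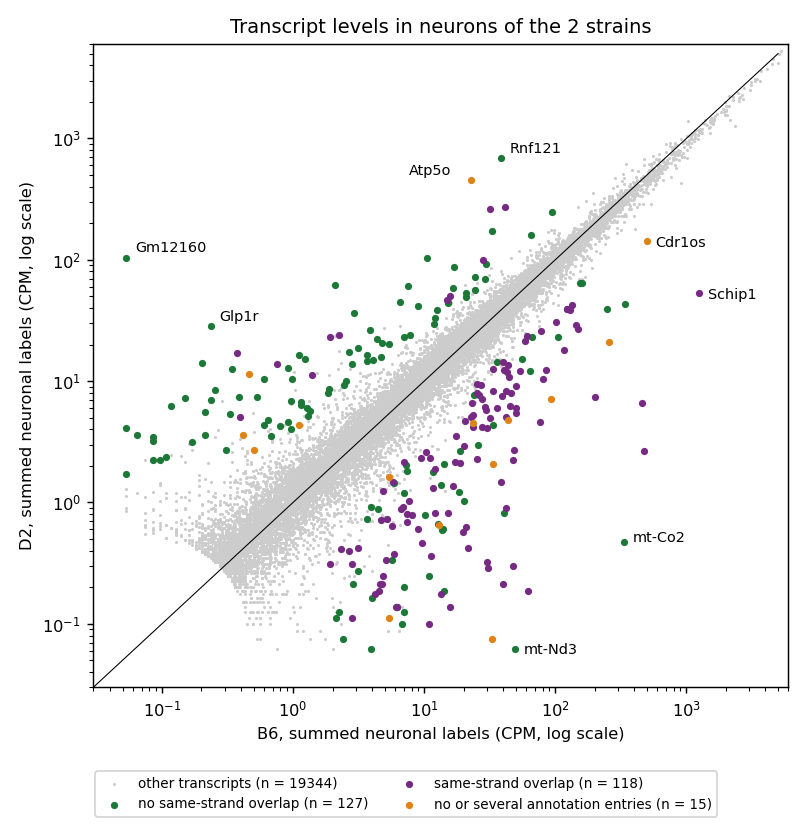
Level of each of the 19604 transcripts in B6 (horizontal axis) and D2 (vertical axis) neurons, as CPM on log scales, summed over the 11 neuronal labels and 2 libraries per strain. Grey points are the 19344 transcripts that are not members, coloured points the 260 members by overlap class, and the line marks equal levels. Members above the line are mostly green (no same-strand overlap) and members below it mostly purple (same-strand overlap).

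The promoters of 4 members are shown first, because in neurons these were the members with the largest difference in accessibility at the promoter, in the same direction as the transcript, among those at 5 CPM or more with no same-strand overlap and with the whole window inside the peak (values follow further on). Each window runs from 250 bases before to 50 bases after the start of the RefSeq transcript, 5′ to 3′ on the gene's strand in GRCm38.p6, with CpG dinucleotides, the main sites of DNA methylation, in capitals. Glp1r lies at chr17:30901617-30901916 on the plus strand and has 29 CpG, Stab2 at chr10:87007893-87008192 on the minus strand with 4, Fggy at chr4:95557257-95557556 on the plus strand with 10, and Hjurp at chr1:88277530-88277829 on the minus strand with 22.
Glp1r: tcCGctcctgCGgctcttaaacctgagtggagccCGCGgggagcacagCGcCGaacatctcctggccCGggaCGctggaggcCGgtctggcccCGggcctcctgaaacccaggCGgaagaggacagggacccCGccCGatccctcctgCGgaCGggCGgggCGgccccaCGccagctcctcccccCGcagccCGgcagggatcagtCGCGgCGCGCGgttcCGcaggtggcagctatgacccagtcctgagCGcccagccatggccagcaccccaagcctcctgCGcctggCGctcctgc
Stab2: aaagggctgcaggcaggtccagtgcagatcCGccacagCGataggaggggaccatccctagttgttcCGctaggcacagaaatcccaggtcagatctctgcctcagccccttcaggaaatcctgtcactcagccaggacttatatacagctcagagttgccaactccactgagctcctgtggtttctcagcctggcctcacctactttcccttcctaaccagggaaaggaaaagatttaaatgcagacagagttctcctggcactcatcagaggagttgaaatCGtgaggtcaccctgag
Fggy: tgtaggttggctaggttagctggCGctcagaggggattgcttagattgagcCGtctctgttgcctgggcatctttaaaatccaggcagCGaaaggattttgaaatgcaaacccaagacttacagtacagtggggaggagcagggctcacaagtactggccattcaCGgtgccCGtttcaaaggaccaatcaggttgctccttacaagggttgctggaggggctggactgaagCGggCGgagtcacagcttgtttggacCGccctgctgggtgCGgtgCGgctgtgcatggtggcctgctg
Hjurp: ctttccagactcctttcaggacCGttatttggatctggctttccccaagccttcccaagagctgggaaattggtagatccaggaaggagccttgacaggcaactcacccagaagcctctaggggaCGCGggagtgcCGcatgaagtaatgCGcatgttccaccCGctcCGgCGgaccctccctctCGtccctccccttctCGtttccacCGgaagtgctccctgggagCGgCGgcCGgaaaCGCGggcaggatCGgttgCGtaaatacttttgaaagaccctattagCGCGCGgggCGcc
RefSeq promoters were matched for 167 of the 260 members, and these held a median of 14 CpG against 18 in the 13812 matched promoters of all transcripts that passed the count limits.

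Glp1r and Stab2 were higher in D2 neurons and Fggy and Hjurp were lower. Glp1r, the receptor for the incretin GLP-1, had 0.323 and 0.148 CPM in B6 libraries 2 and 3, and 26.4 and 30.8 CPM in the D2 libraries. It was at 0 counts in B6 in 7 of the 11 labels and at 16.7 to 44.3 CPM in D2 in all of them. The highest B6 label was Exc-CA3, at 1.38 CPM. That D2 was the higher strain within each label was fixed by the rule. Stab2, a scavenger receptor that takes up hyaluronan and is best known from sinusoidal endothelium, was at 11 and 10.1 CPM in B6 and at 92.5 and 118 CPM in D2. Fggy, a carbohydrate kinase, was at 34 and 32.9 CPM in B6 and at 4.45 and 4.25 CPM in D2. Hjurp, the chaperone that loads the centromeric histone CENP-A, was at 23.2 and 24.7 CPM in B6 and at 7.77 and 7.56 CPM in D2.

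Among the other members higher in D2 with no overlap, Rnf121, a ubiquitin ligase of the endoplasmic reticulum and Golgi, had the highest mean level. Its B6 libraries were at 38 and 38.8 CPM and its D2 libraries at 709 and 663 CPM. In B6 it hardly varied between labels (34.2 to 44.8 CPM), whereas in D2 it ran from 291 CPM in Inh-Lamp5 to 1231 CPM in Exc-CA1-Fras1. The long non-coding RNA Gm12160 was the nearest to a switch, with 0.0647 and 0.0422 CPM in B6 and 108 and 98.6 CPM in D2, a ratio of 189. Cfap54, a component of motile cilia, was at 31.7 and 33.6 CPM in B6 and at 169 and 177 CPM in D2. Sav1, the scaffold of the Hippo kinases, was at 16.5 and 17.1 CPM in B6 and at 85.7 and 88.3 CPM in D2. In each of them the gap between the strains was many times the gap between libraries of a strain.

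Lars2, the mitochondrial leucyl-tRNA synthetase, went from 68.7 and 61.7 CPM in B6 to 156 and 167 CPM in D2. Mrpl41, a protein of the mitochondrial ribosome, was at 29.8 and 29.6 CPM in B6 and at 91.9 and 94.6 CPM in D2. Abcb8, a transporter of the inner mitochondrial membrane, was at 16.4 and 16.6 CPM in B6 and at 59.6 and 57 CPM in D2. Atp5o, a subunit of ATP synthase, had one of the largest ratios at this level, 19.7, with 21.9 and 23.3 CPM in B6 and 471 and 434 CPM in D2. Its symbol had several annotation entries, so its position and overlap were not assigned. Riok2, a kinase of ribosome maturation, was at 29.7 and 28 CPM in B6 and at 67.1 and 72.1 CPM in D2. Gm38134, 6530437J22Rik and Gm4924, which have no established role, had ratios of 2.63, 2.92 and 2.29.

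Only 11 of the 96 members higher in D2 overlapped another gene on their strand. The most abundant was Sfi1, a centrin-binding protein of the centrosome, at 42.7 and 40.3 CPM in B6 and at 269 and 279 CPM in D2. Pisd, the mitochondrial enzyme that makes phosphatidylethanolamine, was at 33.3 and 30.3 CPM in B6 and at 263 and 258 CPM in D2. Sfi1 and Pisd have near-identical partial copies elsewhere in the mouse genome, so how reads were shared out among the copies is uncertain. Gm3448 had a ratio of 3.54 and lies in a group of 3 members within 1 Mb on chromosome 17, with Gm3417 and 9030025P20Rik, all higher in D2. Snhg1, a host of small nucleolar RNAs, had a ratio of 3.11, and the overlapping entries include the small RNAs in its own introns.

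The most abundant member lower in D2 was Schip1, a protein of the axon initial segment, at 1293 and 1197 CPM in B6 and at 49.5 and 57.5 CPM in D2. It overlaps Iqschfp, a read-through gene model that joins Schip1 to its neighbour, which had no count in B6 neurons and 20.9 CPM in D2. Cox16, an assembly factor of respiratory complex IV, was at 196 and 206 CPM in B6 and at 7.44 and 7.28 CPM in D2. It overlaps 4 entries on its strand, which together had 1.43 CPM in B6 against 9.25 CPM in D2. In both cases the partners were higher in D2 by far fewer CPM than the member was lower. Reads that could not be assigned to a single gene are in neither value. The part of the overlap in these differences was not tested.

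Members lower in D2 without an overlap were fewer. Gm32250, a long non-coding RNA on chromosome 1, was at 261 and 236 CPM in B6 and at 39.1 and 39.1 CPM in D2. Dnajc19, a co-chaperone of the mitochondrial import motor, was at 158 and 164 CPM in B6 and at 64.1 and 64.4 CPM in D2. Snrpf, a core protein of spliceosomal snRNPs, differed by more between the B6 libraries, 84.9 and 43 CPM, than most members did, and both stood above 13.3 and 10.7 CPM in D2. Mcmdc2, a protein of meiotic recombination, and Kif24, a kinesin of the centriole, had ratios of 0.278 and 0.408. The antisense transcripts Gm43713, A930015D03Rik, Gm28198 and 4933433G19Rik had ratios from 0.227 to 0.42. Members with no vM21 entry included Cdr1os, the non-coding transcript from which the circular RNA Cdr1as is thought to come, at 503 and 489 CPM in B6 and at 144 and 139 CPM in D2. The others named, Pakap.1, Gm41804 and Gm5820, had ratios of 0.0805, 0.208 and 0.085.

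The 2 directions differed in where the genes lie. Of the 164 members lower in D2, 107 (65.2%) overlapped another gene on the same strand, of the 96 higher 11 (11.5%), and of all 19604 transcripts past the count limits 4290 (21.9%). Overlap on the opposite strand was found for 34 of the 91 higher members with a single entry (37.4%), for 75 of the 154 such lower members (48.7%) and for 49.9% of all. Of the 107 overlapped members lower in D2, 59 (55.1%) had a partner with no count in B6 neurons and at least 10 counts in D2 neurons, against 1359 of the 4290 overlapped transcripts (31.7%). For 26 of the 107 (24.3%) the table listed no partner, against 1604 of the 4290 (37.4%). With the partners' counts added, the ratio was between 0.5 and 2 in 14 of the 107 (13.1%) and in 4017 of the 4290 (93.6%). Members start outside that range by the rule. Reads assigned to no gene are in neither count, so the sum cannot restore them and does not measure the part of the overlap. Without overlapped members, 80 higher and 47 lower members with a single entry were left.

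The strains' columns did not hold the same genes at 0. Over the neuronal labels 8099 symbols were counted in D2 but had no B6 count, of which 2752 reached 50 counts, and together they held 3.46% of the D2 counts. The reverse, counts in B6 and none in D2, was seen for 1010 symbols, of which 121 reached 50 counts, with 0.739% of the B6 counts. Several members shared one such partner. Gm21992, with 0 counts in B6 and 4933 in D2, overlaps Rbm4 and Rbm14, a pair of RNA-binding splicing regulators that were both lower in D2. Gm20503, with 0 and 255 counts, overlaps Dnajc25 and Gng10, a G protein gamma subunit. Gm20388, a read-through model at chr8:119910841-124345722 that the table does not list, overlaps 11 members, all lower in D2, among them Gse1, Banp, Tubb3 and Jph3. Whether the 2 strains were counted against the same gene models cannot be told from the table, and its part in the lower members was not tested.

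**Figure D2:**
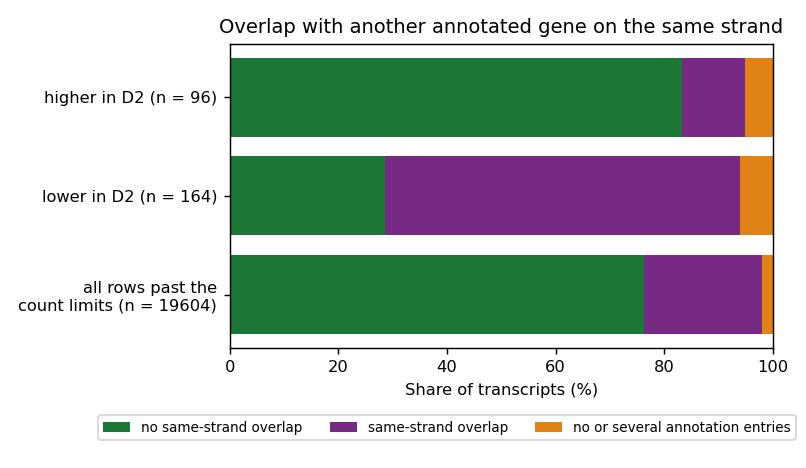
Share of transcripts (horizontal axis, percent) by overlap with another annotated gene on the same strand, for the 96 members higher in D2, the 164 lower and all 19604 transcripts past the count limits. The purple share is 11.5% for the higher members, 65.2% for the lower members and 21.9% for all.

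Some members were neighbours. Within 1 Mb of another member lay 122 of the 245 members that have a position (49.8%), against 25.7% of the 18985 other transcripts with a position. They formed 45 groups, 17 of which held both directions. A member lower in D2 lay within 1 Mb of 75 of the 154 lower members (48.7%), of 20 of the 91 higher members (22%) and of 17.6% of the other transcripts. A member higher in D2 lay that near to 24 of the 91 higher members (26.4%), to 21 of the 154 lower members (13.6%) and to 11.3% of the others. Overlapping genes are neighbours too, and the part of the overlaps in these shares was not tested. The largest group was on chromosome 8 between positions 121729623 and 124345724, with 9 members, all lower in D2 and all overlapping Gm20388. A group of 4 on chromosome 17 was mixed, with Dnah8 and Glp1r higher in D2 and Tbc1d22b and Cmtr1 lower. Krt12, A830036E02Rik and Krt20, all lower in D2, lie at chr11:99415666-99438150.

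Of the 13 protein-coding genes of the mitochondrial genome 6 were members, all lower in D2: mt-Co1, mt-Co2 and mt-Co3, the core subunits of complex IV, mt-Atp6 of ATP synthase, and mt-Nd3 and mt-Nd4l of complex I. mt-Co2 was at 265 and 396 CPM in B6 and at 0.424 and 0.538 CPM in D2. mt-Co3 was at 388 and 557 CPM in B6 and at 3.08 and 2.07 CPM in D2. mt-Co1 differed less, with 273 and 400 CPM in B6 and 47.7 and 37 CPM in D2. The other 7 genes had ratios from 0.523 to 0.947, so the mitochondrial genes did not differ alike. A stretch of nuclear DNA at chr1:24611535-24616188 matched bases 6390 to 11042 of the mitochondrial genome with 99.936% identity over 4654 bases, on the minus strand. The last 300 bases of each of the 6 members lie within that copy, and so does mt-Atp8, whose ratio was 0.947. The last 300 bases of the other 6 genes lie outside it. The pseudogenes annotated there had no count in B6, and Gm28438 had 1517 in D2. Mitochondrial RNA in nuclear preparations varied between libraries too. The 13 genes, the 6 members included, summed to 2007 and 3054 CPM in B6 and to 826 and 572 CPM in D2 neurons. Outside the members the strains differed less, and mt-Nd2 was at 181 and 284 CPM in B6 and at 228 and 147 CPM in D2. The libraries of the strains also overlapped for mt-Nd1, mt-Atp8, mt-Nd5 and mt-Cytb, whereas mt-Nd4 and mt-Nd6 were lower in both D2 libraries.

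Gene groups were counted to see which kinds of gene the members were. Of 21 loci with known B6 or D2 alleles, such as Gabra2, Nnt and Glo1, 2 were members, Alad and Dnah8. Alad, the second enzyme of heme synthesis, known for a gene duplication in D2, was at 3.82 and 3.46 CPM in B6 and at 13.9 and 15.8 CPM in D2, with ratios from 2.99 to 6.1 in the 11 labels. Hdhd3, next to Alad, had a ratio of 2.87 but missed the limit, at 1.61 in its lowest label. Dnah8, an axonemal dynein heavy chain, was at 1.21 and 1.01 CPM in B6 and at 15.1 and 18.3 CPM in D2. Large families of neuronal signalling and adhesion genes gave no member, that is, none of 66 ligand-gated and metabotropic receptor genes, 110 voltage-gated channel genes, 56 clustered protocadherins, 17 cadherins, 50 semaphorins, plexins and ephrins with their receptors, or 12 MHC genes was a member. Over all 19604 transcripts 1.33% were members.

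Zinc finger genes gave 10 members of 383 (2.61%). Zfp992, Zfp993, Zfp951 and Zfp947 were higher in D2, with ratios from 4.67 to 8.46, and none of them overlapped another gene on its strand. Zfp524, Zfp82, Zfp566, Zfp963, Zfp934 and Zfp91 were lower, with ratios from 0.0659 to 0.323, and all 6 did. Zinc finger genes of this kind form clusters of similar copies, so reads may be split between them. Ribosomal proteins gave 6 members of 173: beside Mrpl41, they were Mrpl53, Rpl13a, Rpl29, Rpl24 and Rps10, lower in D2 with ratios from 0.0837 to 0.3, of which Rpl29 alone had no overlap. Ribosomal protein genes have many processed pseudogenes, with the same uncertainty. Solute carriers gave 4 of 312, among them the sugar transporter relative Slc5a4b, higher at a ratio of 3.39, and the zinc transporters Slc39a2 and Slc39a7, lower at 0.285 and 0.282. Heat shock genes gave Dnajc19 and Dnajc25 of 62, respiratory chain genes Atp5o and Cox16 of 103, and small nucleolar RNA hosts Snhg1 of 16. Predicted genes named Gm gave 28 higher and 24 lower of 3272, and those named Rik 8 and 16 of 1338, shares of 1.59% and 1.79% that are close to the 1.33% of all.

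The direction was shared by construction, but for most members the highest and lowest label ratios lay more than 2-fold apart. Counting error is part of this spread, and its part was not tested. At least 1 label had 0 counts in B6 for 38 members and in D2 for 61. The highest label ratio was within 2-fold of the lowest for 73 of the 260, and more than 5-fold above it for 42. The median spread was 2.68-fold for members higher in D2 and 2.46-fold for those lower. Inhibitory labels lay all above the excitatory ones in 8 members and all below in 7. The most uneven member was Arhgap26, a GTPase-activating protein, which spread 60.4-fold. In D2 it was at 2.31 to 25.7 CPM in the excitatory labels and at 64.5 to 84.2 CPM in the inhibitory ones, while B6 had 142 to 448 CPM throughout, so its ratios were 0.00683 to 0.114 and 0.351 to 0.413. Its symbol had several annotation entries. Stab2 spread 23.5-fold, from 2.56 in Exc-Cdh12 to 60.3 in Inh-CGE, and the level of both strains depended on the label, since B6 was at 38.3 CPM in Exc-Cdh12 and at 2.15 CPM in Inh-CGE, D2 at 99 and 159 CPM. Schip1 spread 12-fold, from 0.011 in Inh-MGE to 0.132 in Inh-Lamp5. The labels with the fewest counts, Exc-Cdh12 and Inh-Lamp5, held the least extreme ratio of 32 and 40 members, the most of any label, and this share moves with depth.

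**Figure D3:**
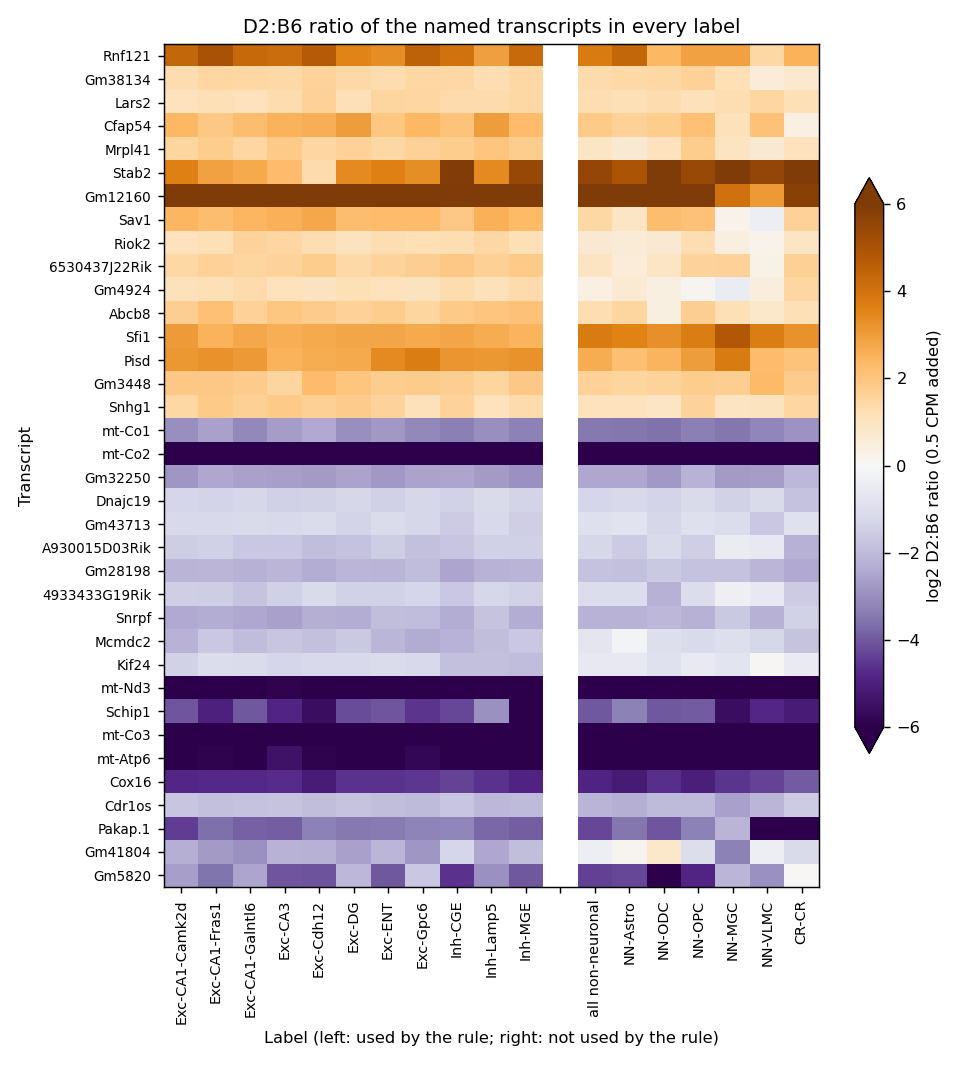
log2 D2:B6 ratio (colour, orange higher in D2 and purple lower, with 0.5 CPM added and colours saturating at 6 and -6) of 36 named transcripts (rows) in the 11 neuronal labels that chose them (left block) and in non-neuronal and Cajal-Retzius labels that did not (right block). Rows keep their colour across the left block by construction. In the right block Stab2, Gm12160, Sfi1 and the mitochondrial genes keep the neuronal colour in every label shown, while Gm41804 fades or turns in several.

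Whether the difference was confined to neurons was asked in the 5 non-neuronal labels (astrocytes, oligodendrocytes, their precursors, microglia, and vascular and leptomeningeal cells), which the choice of members did not use, in the same 4 libraries. It was not. Summed over these labels and tested with edgeR's quasi-likelihood test with Benjamini-Hochberg adjustment over 18526 transcripts, 82 of the 96 members higher in D2 rose in D2 as well, against 18.5% of all transcripts tested, none fell, 3 passed in neither direction and 11 were below the filter on low counts. Of the 164 lower members 154 fell in D2, against 12% of all, 1 rose, 4 passed in neither direction and 5 were below the filter. A member can pass that filter through the strain where it is high, so the count was also taken over the members with at least 10 counts in each strain. Of these, 66 of 69 higher members rose (10.4% of all 16606 such transcripts) and 112 of 117 lower members fell (12.1% of all). On the scale with 0.5 CPM added, over every member, tested or not, the median ratio was 3.18 for the 96 and 0.18 for the 164, against 0.967 over all transcripts.

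Rnf121 was at 34 and 30.9 CPM in B6 and at 465 and 427 CPM in D2 in non-neuronal nuclei, that is, 3.83 ± 0.11 (SE) on the log2 scale (adjusted p = 2.84e-10, edgeR). Stab2 was at 4.59 and 2.68 CPM in B6 and at 166 and 199 CPM in D2, or 5.73 ± 0.18 on the log2 scale (adjusted p = 6.87e-10, edgeR), more than in neurons. Sfi1 was at 52.9 and 48.1 CPM in B6 and at 693 and 710 CPM in D2, or 3.85 ± 0.11 on the log2 scale (adjusted p = 2.19e-10, edgeR). The D2 level of Sfi1 in these nuclei was 257% of that in neurons. Atp5o rose by 3.67 ± 0.12 and Lars2 by 1.31 ± 0.10 on the log2 scale. Gm12160 had 1 count in B6 and 2203 in D2 (2350-fold by CPM, 421 to 92800 at 95% for counting error only), and Glp1r 2 counts in B6 and 106 in D2 (56.5-fold, 15.3 to 473).

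Alad rose by 1.69 ± 0.22 on the log2 scale (adjusted p = 7.89e-05, edgeR) and Dnah8 by 2.13 ± 0.27 (adjusted p = 5.61e-05, edgeR). Among the lower members, Schip1 was at 244 and 230 CPM in B6 and at 11 and 17.3 CPM in D2, or -4.01 ± 0.16 on the log2 scale (adjusted p = 3.29e-09, edgeR). Cox16 fell by 4.94 ± 0.12, Cdr1os by 2.12 ± 0.13 and Gm32250 by 2.46 ± 0.11 on the same scale. mt-Co2 was at 1184 and 1456 CPM in B6 and at 1.11 and 0.793 CPM in D2. The zinc finger members kept their neuronal directions, Zfp951 rising by 2.09 ± 0.15 and Zfp934 falling by 2.64 ± 0.16. Some named changes were small: Gm4924 rose by 0.41 ± 0.11, Kif24 fell by 0.54 ± 0.12 and Mcmdc2 by 0.69 ± 0.16. The calls of Gm4924, Zfp993 and Slc39a2 were lost with DESeq2, and those of Gm4924 and Zfp993 also without D2 library 3 (Gm4924 without B6 library 3 as well).

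The exceptions were few. Banf2, a relative of the chromatin-bridging protein Banf1, was lower in D2 neurons (B6 10.6 and 11.3 CPM, D2 0.29 and 0.198 CPM) and higher in D2 non-neuronal nuclei (B6 1.11 and 1.17 CPM, D2 11 and 9.25 CPM), with a log2 fold change of 3.18 ± 0.30 (adjusted p = 5.2e-06, edgeR). Its D2 counts came from oligodendrocytes, where it was at 55.4 and 46.5 CPM against 1.03 and 2.32 CPM in B6. Plvap, Gm4230, Glycam1, Fam227b, Gm41804, Arhgdib and Il31ra were tested and passed in neither direction. Gm41804 was at 6.13 and 7.12 CPM in B6 and at 6.25 and 4.1 CPM in D2 outside neurons, so its libraries overlapped there.

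**Figure D4:**
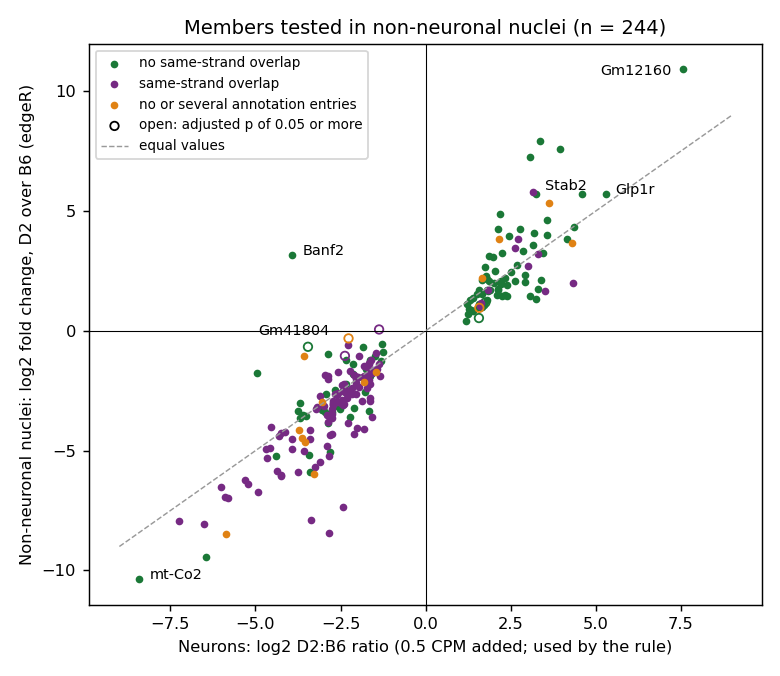
log2 fold change of D2 over B6 in non-neuronal nuclei (vertical axis, edgeR, 2 libraries per strain) against the log2 D2:B6 ratio in neurons (horizontal axis, used by the rule) for the 244 members tested, coloured by overlap class, with open circles for adjusted p of 0.05 or more and a dashed line at equal values. All but 2 of the 244 points, Banf2 and Fam227b, lie at the lower left or upper right, where the directions are the same.

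RNA that leaks from broken neurons is counted in all droplets, so non-neuronal nuclei carry some neuronal RNA. The 9 neuronal, excitatory and inhibitory markers had 7.33% to 41.7% of their neuronal level in B6 non-neuronal nuclei and 4.54% to 44.3% in D2. Each member was compared in the strain where it was higher, with the highest marker share of that strain (41.7% in B6, 44.3% in D2). Of the 260 members, 216 lay above it, and the median share of the neuronal level was 97.9%. The markers set no limit for RNA that leaks more than they do, so leaked RNA was not excluded for the 216. Mitochondrial members are among the 216, with mt-Co2 at 1332 CPM in B6 non-neuronal nuclei and 331 CPM in B6 neurons. For the other 44, among them Cfap54 (18.7%), Cdr1os (18.9%), Schip1 (19%) and Glp1r (25.3%), the level lay within the range of the markers, and the part of leaked RNA in their non-neuronal difference was not tested. By overlap class, 53 of 55 higher and 29 of 31 lower members with no same-strand overlap and at least 10 counts in each strain passed in the neuronal direction, and 10 of 10 and 76 of 78 of those with an overlap, shares that are too high to tell the classes apart.

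In astrocytes alone, 67 of the 96 higher members rose (14.5% of all 14686 transcripts tested) and 130 of the 164 lower members fell (11.7% of all), with none in the opposite direction, while 28 and 31 were below the filter. Of the astrocyte members with at least 10 counts in each strain, 45 of 46 higher ones rose (8.96% of all 13579 such transcripts) and 89 of 92 lower ones fell (11.2% of all). In oligodendrocytes alone, 44 rose (10.1% of all 11670) and 109 fell (8.93% of all), and 49 and 47 were below the filter. With at least 10 counts in each strain these were 37 of 40 (6.78% of all 11018) and 65 of 72 (7.78% of all). There 3 lower members rose, Banf2, Arhgap26 and Fam227b, the latter 2 named after their values were seen. Arhgap26 was at 13.4 and 20.2 CPM in B6 oligodendrocytes and at 59 and 68.1 CPM in D2, or 1.99 ± 0.22 on the log2 scale (adjusted p = 1.44e-07, edgeR), whereas in astrocytes it went from 254 and 214 CPM to 82.3 and 74.5 CPM, a log2 fold change of -1.49 ± 0.11 (adjusted p = 1.58e-13, edgeR). Fam227b rose by 1.31 ± 0.41 in oligodendrocytes. In precursors, microglia and vascular cells, where no test was run, 80, 62 and 62 of the 96 were at a ratio of at least 2 and 152, 140 and 142 of the 164 at 0.5 or less, against 5.73%, 8.96% and 11.5% and 7.23%, 14.8% and 14.4% of all transcripts.

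The strain difference of a member could differ in size between astrocytes and oligodendrocytes. Tested as an interaction with library as a factor, 10 of the 211 members that could be fitted did so (4.74%), a share near the 3.32% of all 15466 transcripts tested. Without B6 library 2 this was 4 and without B6 library 3 it was 5. Sav1 rose by 1.03 in astrocytes and by 2.34 in oligodendrocytes on the log2 scale, and its difference of 1.30 ± 0.19 had an adjusted p of 0.000762 (edgeR), and 0.116 without B6 library 2. Rnf121 rose by 4.44 and 2.49, a difference of -1.96 ± 0.19 (adjusted p = 1.73e-05, edgeR). In each of these the direction was shared and the size was not.

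Cajal-Retzius cells, early-born neurons that secrete Reelin, have a label of their own without the neuronal prefixes and so were also outside the rule. With 309 nuclei in B6 and 91 in D2 they were the thinnest comparison. Of the 96 higher members 23 passed the filter and 11 rose in D2 (2.18% of all 6661 transcripts tested), and of the 164 lower members 65 passed and 39 fell (2.09% of all). Most of these lower members had under 10 counts in one of the strains. Over the members with at least 10 counts in each strain, 8 of 20 higher ones rose (1.07% of all 5807 such transcripts) and 7 of 17 lower ones fell (1.08% of all). The 50 calls in the neuronal direction became 30 without B6 library 3, 25 with DESeq2 and 6 with a filter of 1 count. Counting every member at 0.5 CPM added, 74 of 96 were at a ratio of at least 2 and 152 of 164 at 0.5 or less, though 12.9% and 20.7% of all transcripts were too at this depth. One member went the other way. Trp73, the p53 relative that Cajal-Retzius cells need, was higher in D2 in the 11 neuronal labels (B6 0.604 and 0.591 CPM, D2 4.16 and 4.5 CPM) and lower in D2 in Cajal-Retzius nuclei (B6 375 and 400 CPM, D2 229 and 61.6 CPM), with a log2 fold change of -1.48 ± 0.36 (adjusted p = 0.0214, edgeR). This call was lost without D2 library 3 and with DESeq2. The summed level of the 4 Cajal-Retzius markers, Trp73 included, moved the same way, from 5960 and 6640 CPM in B6 to 4010 and 1640 CPM in D2, and its part in the result was not tested.

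Open chromatin at the promoter, measured in libraries of its own, was compared between strains in the same neuronal labels. A peak within 1 kb of the annotated gene start was found for 190 members (187 distinct peaks) and for 16285 genes in all. Among the 66 higher members with a peak, the peak was more accessible in D2 in 24 (36.4%), against 10.9% of all genes with a peak, and less accessible in 6. Among the 124 lower members, the peak was less accessible in D2 in 15 (12.1%), against 2.38% of all, and more accessible in 5. For the other 36 and 104 the peak passed in neither direction (edgeR, Benjamini-Hochberg adjustment over all peaks). Peak counts may also differ with the number of gene copies and with the mapping reference of the strain. The part of these in the peak differences was not tested. The lower members split by overlap: 9 of 34 without a same-strand overlap had a less accessible promoter (26.5%) and 6 of 90 with one (6.67%).

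At the 4 promoters printed above, Glp1r had 265 and 237 counts in B6 and 545 and 865 in D2, a log2 fold change of 1.26 ± 0.11 (adjusted p = 4.76e-15, edgeR). The peak of Fggy had 1928 and 2143 counts in B6 and 458 and 569 in D2, a log2 fold change of -2.20 ± 0.07 (adjusted p = 1.11e-38, edgeR). Stab2 went from 369 and 395 counts to 707 and 765, a log2 fold change of 0.74 ± 0.10 (adjusted p = 8.36e-09, edgeR), and Hjurp from 10182 and 10983 to 6802 and 8598, a log2 fold change of -0.67 ± 0.04 (adjusted p = 1.63e-23, edgeR). The accessibility of all 4 moved by less than the transcript did. Alad had a peak of 1425 and 1543 counts in B6 and 4933 and 5941 in D2, and its log2 fold change of 1.66 ± 0.05 (adjusted p = 1.38e-39, edgeR) amounts to 3.16-fold, beside the transcript's ratio of 3.68. The part of the gene duplication in the Alad peak was not tested.

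The largest change among peaks with counts in both strains was at Sfi1, with 3054 and 2909 counts in B6 and 39647 and 43687 in D2 (3.6 ± 0.04 on the log2 scale, adjusted p = 1.78e-66, edgeR). Of the members with the largest transcript ratios and a called peak, the antisense transcript Gm26793 (ratio 20.6) and AI506816 (ratio 20.1) had peaks that rose by 0.96 ± 0.07 and 0.90 ± 0.09. The peak of A830036E02Rik (ratio 0.047) fell by 0.54 ± 0.08. Zfp91 and Gng10, both overlapped, were exceptions, since their transcripts were at 0.0659 and 0.0736 of the B6 level while their peaks rose by 0.15 ± 0.04 and 0.18 ± 0.06. Peaks at 0 in one strain were found at 3 members, named after their values were seen. Gon4l had 301 and 319 counts in B6 and 0 in both D2 libraries, at least 245-fold lower against 3 counts over the strain. Gm4425 had 0 in B6 and 233 and 328 in D2, at least 158-fold higher. Zfp951 had 308 and 273 counts in B6 and 0 in D2, at least 230-fold lower, although its transcript was 6.2 times higher in D2. Rnf121, Gm12160 and Lars2, among the most abundant higher members, had no called promoter peak.

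**Figure D5:**
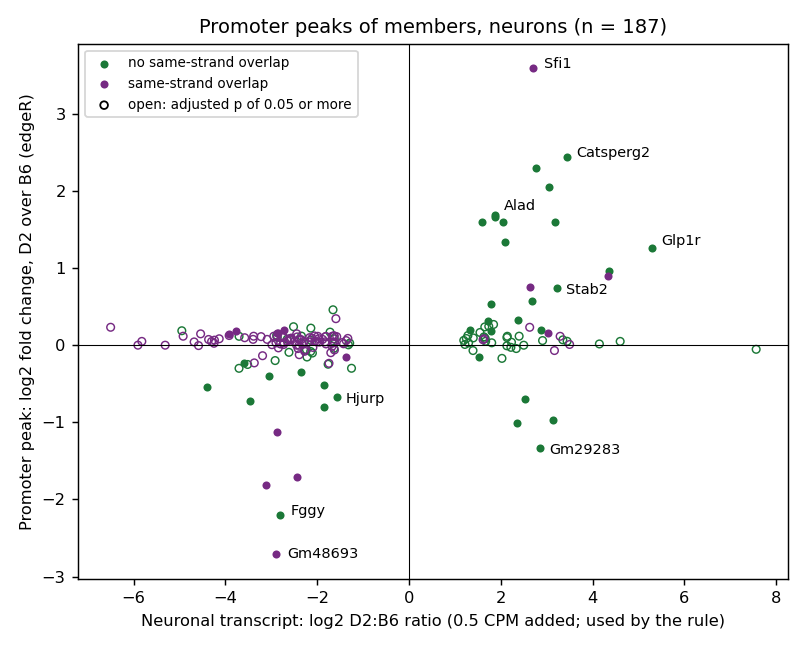
log2 fold change of the promoter peak in neurons (vertical axis, D2 over B6, snATAC-seq, edgeR, 2 libraries per strain) against the log2 D2:B6 ratio of the transcript (horizontal axis, used by the rule) for 187 members, coloured by overlap class, with open circles for adjusted p of 0.05 or more. The 3 members with a peak at 0 in one strain are not drawn. Most points lie along 0, and the filled points with large changes are mostly green, with Sfi1 highest and Gm48693 lowest.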

How the data were processed

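Per the labels and the paper's methods, Cell Ranger 6.0.2 (snRNA-seq, with introns kept) and Cell Ranger ATAC 2.0.0 (snATAC-seq) mapped the reads. The reference was mm10, and for D2 an mm10 in which SNPs had been replaced by the D2 bases. Nuclei were filtered, doublets removed and cell types assigned. The authors deposited raw counts per cell type and library, summed over nuclei and not normalized, for transcripts and for snATAC-seq peaks. The tables hold no cell barcodes, so barcodes shared between libraries could not be counted. Columns could be placed in a strain but not on 1 sample, 16 snATAC-seq columns of non-neuronal labels were not used, and the 16 methylation samples of the 24 were not analysed here.

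Members were chosen as the opening states, from the transcripts' counts. Symbols were matched to GENCODE vM21 (245 of 260 members had 1 entry). The test was edgeR 4.0.16 (R 4.3.3) on raw counts summed per library, with TMM normalization, filterByExpr (snATAC-seq: at least 10 counts), a quasi-likelihood F test without covariates and Benjamini-Hochberg adjustment over all features, called at adjusted p under 0.05. Biological coefficients of variation were 0.0563 to 0.138. Each ± value is an approximate standard error, the absolute log2 fold change divided by the square root of the F statistic. The smallest p of an exact permutation test with 2 libraries in each strain is 0.33. The p-values printed are therefore those of the fit across all features, and they measure the spread between pooled libraries. Intervals and bounds cover counting error only, and bounds use 3 counts over the strain. DESeq2 1.42.0 served as an alternative. Nuclear copies of the mitochondrial genome were searched with BLAST 2.17.0 (at least 99% identity over 500 bases). The steps were tested on simulated data with a smaller spread between libraries than the real data, so error rates there do not carry over. Python 3.11.15, numpy 2.4.6, pandas 2.3.3 and matplotlib 3.10.9 were used.

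The members and all lists were chosen with earlier results of these data known. Members named by rule are the 12 in each direction with the highest mean level without a same-strand overlap, the 4 in each direction with one, the 4 with no annotation entry, those next to the limit, those on the lists, those called in the opposite direction outside neurons, and the 6 with the largest change among those with a called promoter peak. Other members named were chosen after their values were seen. A few of the items that the rule names are not reported here.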

Additional observations from a re-analysis of the deposited data

Results flagged for a closer look

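For 10 of the 211 members tested (4.74%, near the 3.32% of all transcripts), the strain difference itself differed between astrocytes and oligodendrocytes, by an edgeR interaction test with library as a factor and Benjamini-Hochberg adjustment over 15466 transcripts. The values are the log2 fold change of D2 over B6 in oligodendrocytes minus that in astrocytes, and 6 of the 10 (Arhgap26, Tubb3, Tcte2, 2700054A10Rik, Banf2 and Neat1) were members lower in D2 neurons. Rnf121 differed by -1.96 ± 0.19 (adjusted p = 1.73e-05), Atp5o by -2.38 ± 0.19 (adjusted p = 4.83e-06) and Abcb8 by -1.13 ± 0.25 (adjusted p = 0.0166), and all 3 were further above B6 in astrocytes. Sav1, at 1.30 ± 0.19 (adjusted p = 0.000762), was further above B6 in oligodendrocytes. Arhgap26, at 3.44 ± 0.24 (adjusted p = 1.64e-06), and Banf2, at 6.72 ± 1.53 (adjusted p = 0.0204), were lower in D2 neurons but higher in D2 oligodendrocytes, as described above, though Banf2 had only 4 counts in B6 and 1 in D2 in astrocytes. Tubb3, a tubulin of neurons, differed by -1.98 ± 0.44 (adjusted p = 0.0182) and Neat1, the scaffold RNA of paraspeckles, by -1.41 ± 0.16 (adjusted p = 0.0001). Neat1 was at 797 and 886 CPM in B6 oligodendrocytes and at 76.3 and 59.3 CPM in D2, and at 180 and 178 CPM in B6 astrocytes and 43 and 33 CPM in D2. Tcte2, at 1.5 ± 0.38 (adjusted p = 0.0358), and 2700054A10Rik, at 2.95 ± 0.60 (adjusted p = 0.00968), lie next to each other on chromosome 17 and were lower in D2 in astrocytes by 1.46 and 4.05 on the log2 scale. In oligodendrocytes their log2 fold changes were 0.07 and -1.07. Tubb3, Tcte2, 2700054A10Rik and Neat1 overlap another gene on their strand. Rnf121, Atp5o, Arhgap26 and Neat1 passed whichever library was left out. Sav1 was lost without B6 library 2, and Abcb8, Tubb3, Tcte2, 2700054A10Rik and Banf2 without B6 library 2 and also without B6 library 3. Tubb3 and Tcte2 were lost without D2 library 2 as well. In all, 4 members passed without B6 library 2 and 5 without B6 library 3.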

How the results depend on the processing

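The number of members followed its limits: 468 at a ratio of 1.5, 131 at a ratio of 3, and 142 (85 higher and 57 lower) when same-strand overlaps were left out, against 260. It was 217 to 234 without 1 library at a time and 309, a setting chosen after seeing the data, when the 2 labels of lowest count were not required. Members called in the neuronal direction numbered 225 to 243 in non-neuronal nuclei under every alternative (236 as reported), and no named gene reversed. The Cajal-Retzius comparison was the least stable, with 50 members as reported, 25 with DESeq2, 6 with a filter of 1 count and 30 to 53 without 1 library at a time (30 without B6 library 3). The astrocyte against oligodendrocyte comparison gave 4 to 11 without 1 library at a time, against 10. Counts over all transcripts moved more than those of members: DESeq2 called 3833, 2203, 1188 and 150 where edgeR called 5650, 3843, 2223 and 284 in non-neuronal nuclei, astrocytes, oligodendrocytes and Cajal-Retzius cells, and 831 against 2166 promoter peaks, and with symbols counted in both strains alone edgeR called 3336 in non-neuronal nuclei. The library numbers do not pair the samples (correlation of same-numbered deviations -0.0773 for snRNA-seq and -0.0421 for snATAC-seq). With the number as a replicate block 237, 196, 152 and 38 members were called in these 4 comparisons and 40 at promoters (39 without the block). The causes of these differences were not tested. Members under 5 CPM (85 of 260) and labels of few nuclei are limited by depth.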
